A study of Drosophila melanogaster with 18 samples.

Results

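Transcripts of 10 genes that are in common use as markers of glia in Drosophila were followed through head lysates and granule pellets prepared from Δmimi and from wild-type flies. The genes were repo, moody, alrm, Eaat1, Eaat2, Gs2, wrapper, Gat, nrv2 and Mdr65, they were selected by symbol, and all 10 were found among the 17558 genes of the count table. Δmimi flies carry a CRISPR deletion in mimi, which encodes a long noncoding RNA of neuronal granules, and the deletion is present in every cell of the animal and not only in neurons. The comparison flies were wild type (w1118). Both genotypes were adult and untreated, and every sample pooled heads of many flies, which according to the methods of the study were of both sexes. Each preparation gave a head lysate, a pellet spun down from the cleared lysate (granules 1) and a pellet spun down again after a wash with detergent (granules 2), so that 18 libraries formed 6 groups of 3.

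Glia of the fly brain fall into classes with separate tasks. Perineurial and subperineurial glia cover the surface and form the blood-brain barrier, with septate junctions that seal the space between subperineurial cells. Cortex glia enclose the cell bodies of neurons, ensheathing glia line the neuropil, and astrocyte-like glia send processes into the neuropil, where they take up transmitters. Glutamate and GABA that have been taken up are turned over in glia, and glutamine is handed back to neurons.

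The 10 transcripts were read at a depth that allowed all of them to be tested. Total counts per library lay between 3635256 and 7798946, and a single member had between 136 and 11601 counts in a library. The 10 genes together took 0.289% to 0.418% of the counts of a library. Reads of mimi numbered 30 to 113 in the 9 Δmimi libraries and 7090 to 18379 in the 9 wild-type libraries. Every member was detected in every library, as were all 11 markers of neurons and 10 of photoreceptors. The summed level of 6 hemocyte markers was 176 to 222 CPM in Δmimi lysates, against 333 to 431 CPM in wild-type lysates, where CPM are read counts scaled to a common library size with the TMM factors of edgeR. The p-values of fits on only the groups compared, without a block, measure the spread between preparations of pooled heads. Where the replicate number was a block, they measure the spread left after differences between the numbers are removed. A fit over all 18 libraries counts the fractions of a preparation as separate libraries. In these bulk samples fewer glial cells and less RNA per glial cell cannot be told apart.

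The levels of the members spanned a wide range. Expressed as CPM per kilobase of exon, which allows genes to be set side by side, Gs2 was the highest in Δmimi lysate, at 527 ± 73.7, and in wild-type lysate, at 547 ± 71.1 CPM per kilobase (SD, n = 3). Gs2 encodes glutamine synthetase, which makes glutamine from glutamate. Eaat1, nrv2 and Eaat2 followed, at 158 ± 23.0, 157 ± 33.6 and 127 ± 30.8 CPM per kilobase in Δmimi lysate, and at 156 ± 20.7, 174 ± 26.1 and 135 ± 12.8 CPM per kilobase in wild-type lysate. The ranges of these 3 overlapped each other over the libraries, and their order within single libraries was not compared. alrm and Gat formed the next pair, at 63.4 ± 8.39 and 61.8 ± 12.2 CPM per kilobase in Δmimi lysate, and again overlapped. Mdr65, repo, moody and wrapper were lowest, between 15.7 and 25.4 CPM per kilobase in Δmimi lysate and between 20.1 and 31.9 CPM per kilobase in wild-type lysate. Over the 60 combinations of gene and group the coefficient of variation between preparations had a median of 15.0% and ran from 1.55% to 35.0%.

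**Figure D1:**
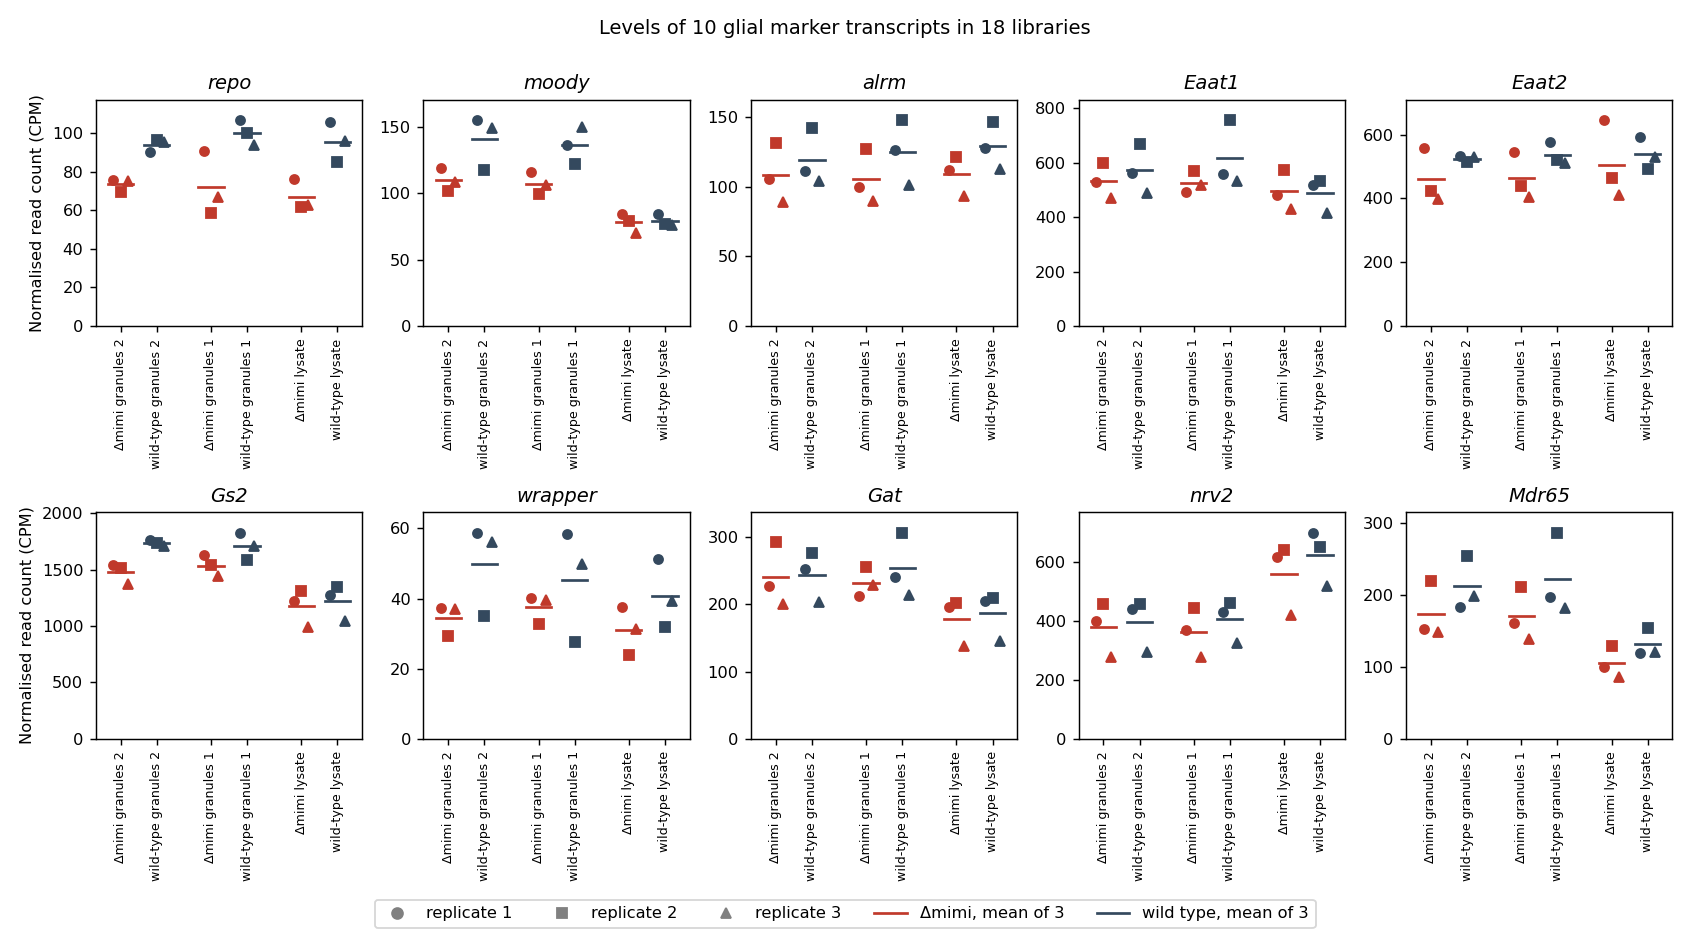
Normalised read count (CPM, linear axis from 0) of each of the 10 glial marker transcripts in the 18 libraries. Points are libraries, symbols mark the replicate number, and horizontal lines are means of 3 libraries of Δmimi (red) or wild type (blue). moody and Mdr65 lie higher in both granule fractions than in lysate, nrv2 has its lowest means in granules, and repo is lower in each Δmimi lysate library than in any wild-type lysate library.

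The study purified granules to learn which RNAs they hold, and each granule fraction was therefore compared with the lysate of the same genotype. Among the 10 members in wild type, moody and Mdr65 of surface glia had the largest log2 fold changes in both granule fractions, while nrv2, which encodes a subunit of the sodium pump, had its lower level in granules and repo, alrm and Eaat2 stood near the lysate level. The FDR given here is the p of the quasi-likelihood test of edgeR after Benjamini-Hochberg adjustment over all tested genes, and a transcript was called when this was below 0.05 and the log2 fold change exceeded 0.5 in size. In wild-type granules 1, 1 of 10 members was called, against 8.17% of 9740 genes tested. In wild-type granules 2, 2 of 10 were called, against 9.49% of 9582 genes. Both counts rest on few genes, and in Δmimi no member was called in granules 1 or in granules 2, where the background was 4.66% and 4.32%. Of the 10 members, 4 in Δmimi granules 1 and 3 in Δmimi granules 2 had an unadjusted p under 0.05, and DESeq2 called 1 and 2 of them. Granules and lysate come from the same preparation, and with the replicate number as a block the calls came to 2 of 10 in Δmimi granules 1 (14.2% of all genes), 2 in Δmimi granules 2 (14.8%), 3 in wild-type granules 1 (16.7%) and 4 in wild-type granules 2 (18%). The libraries of granules and lysate did not overlap for 4 members in Δmimi granules 1, against 29.1% of all genes, for 3 in Δmimi granules 2, against 28.7%, for 6 in wild-type granules 1, against 32.7%, and for 4 in wild-type granules 2, against 34.1%. Muscle markers, summed, were lower in granules than in the lysate of the same preparation in all 12 pairs, at 16463 to 41087 CPM in Δmimi granules 1, against 20151 to 49551 CPM in Δmimi lysates, and their part in these results was not tested. The granules 1 and granules 2 comparisons of one genotype share their lysate libraries.

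moody (FBgn0025631, chromosome X, 2044292 to 2050120 on the minus strand of BDGP6) encodes a G protein-coupled receptor of subperineurial glia that is needed for the blood-brain barrier. It stood at 119, 101 and 109 CPM in Δmimi granules 2 and at 116, 99.7 and 106 CPM in Δmimi granules 1, against 84.5, 79.3 and 70.5 CPM in Δmimi lysates. In wild type it stood at 155, 118 and 149 CPM in granules 2 and at 137, 122 and 150 CPM in granules 1, against 84.2, 77.1 and 76.5 CPM in lysates. Every granule library thus exceeded every lysate library of its genotype. In Δmimi the log2 fold change of moody was 0.45 in granules 1 (SE 0.11, edgeR FDR = 0.0609) and 0.50 in granules 2 (SE 0.12, edgeR FDR = 0.0615), and it was not called there. In wild type moody rose in granules 1 by a log2 fold change of 0.77 (SE 0.11, edgeR FDR = 0.00672) and in granules 2 by one of 0.83 (SE 0.13, edgeR FDR = 0.00818). The wild-type calls were lost when preparation 1 or preparation 3 was left out, with log2 fold changes of 0.67 to 0.83 in granules 1 and 0.74 to 0.93 in granules 2 over the 3 leave-outs.

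Mdr65 (FBgn0004513, chromosome arm 3L, 6240500 to 6245746 on the minus strand) encodes an ABC transporter of the same surface cells that exports foreign compounds. Its levels were 152, 219 and 148 CPM in Δmimi granules 2 and 161, 211 and 138 CPM in Δmimi granules 1, against 99.7, 129 and 86.4 CPM in Δmimi lysates. In wild type they were 183, 254 and 198 CPM in granules 2 and 196, 286 and 182 CPM in granules 1, against 119, 154 and 120 CPM in lysates. No granule library overlapped the lysates of its genotype. Mdr65 rose in wild-type granules 2 by 0.70 on the log2 scale (SE 0.16, edgeR FDR = 0.0333), and this call too was lost without preparation 1 or preparation 3. Its log2 fold change was 0.74 in wild-type granules 1 (edgeR FDR = 0.0583), 0.69 in Δmimi granules 1 (edgeR FDR = 0.0929) and 0.73 in Δmimi granules 2 (edgeR FDR = 0.0865). With the replicate block Mdr65 was called higher in all 4 comparisons (edgeR FDR = 5.56e-12 to 2.93e-05).

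nrv2 (FBgn0015777, chromosome arm 2L, 6789770 to 6798862 on the minus strand) encodes a beta subunit of the sodium and potassium pump. It had 398, 457 and 278 CPM in Δmimi granules 2 and 368, 442 and 278 CPM in Δmimi granules 1, against 616, 639 and 421 CPM in Δmimi lysates. In wild type it had 439, 457 and 294 CPM in granules 2 and 429, 461 and 325 CPM in granules 1, against 698, 650 and 518 CPM in lysates. The wild-type groups did not overlap, the Δmimi groups did, and within each of the 6 preparations both granule fractions were below the lysate. Its log2 fold change was -0.63 in Δmimi granules 1 (SE 0.22, edgeR FDR = 0.144), -0.56 in Δmimi granules 2 (SE 0.23, edgeR FDR = 0.210), -0.63 in wild-type granules 1 (SE 0.18, edgeR FDR = 0.0690) and -0.64 in wild-type granules 2 (SE 0.20, edgeR FDR = 0.0827). It was called in none of these fits, and with the replicate block it was called lower in all 4 (edgeR FDR = 8.94e-10 to 9.43e-05).

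The paralog nrv1, another beta subunit whose gene lies beside nrv2 on the same strand of chromosome arm 2L, moved the other way. It was the only 1 of 3 further pump genes (Atpalpha, nrv1 and nrv3) to be called, where 2.65% of all genes were called higher in Δmimi granules 1 and 4.82% in wild-type granules 1. nrv1 stood at 907, 818 and 827 CPM in Δmimi granules 1, against 539, 614 and 467 CPM in Δmimi lysates. In wild type it stood at 1171, 1194 and 1240 CPM in granules 1, against 485, 531 and 469 CPM in lysates. nrv1 rose in Δmimi granules 1 by 0.65 on the log2 scale (SE 0.13, edgeR FDR = 0.0397) and in wild-type granules 1 by 1.27 (SE 0.11, edgeR FDR = 0.000940). In granules 2 the log2 fold changes were 0.72 in Δmimi (SE 0.14, edgeR FDR = 0.0379) and 1.24 in wild type (SE 0.12, edgeR FDR = 0.000807). The Δmimi calls of nrv1 were lost without any 1 of the 3 preparations, at log2 fold changes between 0.58 and 0.83, and the wild-type calls were lost without preparation 3, at 1.21 in granules 1 and 1.15 in granules 2. nrv3, a beta subunit of neurons, had a log2 fold change of -0.37 in wild-type granules 1 (edgeR FDR = 0.307) and Atpalpha, the catalytic subunit, one of 0.35 (edgeR FDR = 0.198).

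Members of the glutamate and GABA cycle were more even. Gs2 had 1545, 1516 and 1375 CPM in Δmimi granules 2, against 1222, 1313 and 994 CPM in Δmimi lysates, and 1764, 1734 and 1710 CPM in wild-type granules 2, against 1273, 1344 and 1041 CPM in wild-type lysates. The groups did not overlap in either genotype. The log2 fold changes of Gs2 were 0.34 in Δmimi granules 2 (SE 0.15, edgeR FDR = 0.243) and 0.51 in wild-type granules 2 (SE 0.14, edgeR FDR = 0.0523), and Gs2 was called in wild-type granules 2 with the replicate block (edgeR FDR = 0.000386). Gat, a transporter that takes up GABA into astrocyte-like glia, had log2 fold changes of 0.37 to 0.43 over the 4 comparisons and was above the lysate in all 12 pairs of granule fraction and lysate. Eaat1, a transporter that takes up glutamate, had log2 fold changes of 0.08 and 0.11 in Δmimi and of 0.32 and 0.23 in wild type. Eaat2, a related transporter, lay between -0.13 and -0.02. In the edgeR fits that gave these log2 fold changes none of these genes passed the test, and the edgeR FDR was 0.197 or above for Gat, Eaat1 and Eaat2. Gs2 was called in wild-type granules 2 under 5 of 6 alternatives that kept all preparations, DESeq2 among them. It was also called in 1 of 3 leave-outs in wild-type granules 1 and in 1 of 3 in wild-type granules 2. With the replicate block the edgeR FDR of Gat was 0.00144 in Δmimi granules 1, 0.00233 in wild-type granules 1, 1.41e-06 in Δmimi granules 2 and 0.000866 in wild-type granules 2, and that of Eaat1 was 0.0204 in wild-type granules 1 and 0.0432 in wild-type granules 2, all at log2 fold changes below the threshold of 0.5.

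The other members differed little between granules and lysate. repo (FBgn0011701, chromosome arm 3R, 18236192 to 18239602 on the plus strand), which encodes the homeodomain transcription factor of nearly all glia outside the midline, had log2 fold changes of 0.10 and 0.14 in Δmimi granules 1 and 2 and of 0.06 and -0.02 in wild-type granules 1 and 2. alrm, a leucine-rich repeat protein of astrocyte-like glia, lay between -0.11 and 0.0037. wrapper, an immunoglobulin-domain protein of midline and cortex glia, had log2 fold changes of 0.14 to 0.30 with standard errors of 0.18 to 0.29. Over all 10 members the median log2 fold change was 0.18 in Δmimi granules 1 and 0.15 in Δmimi granules 2, against -0.03 and -0.02 over all genes tested, and 0.23 in wild-type granules 1 and 0.27 in wild-type granules 2, against -0.04 in both over all genes tested.

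**Figure D2:**
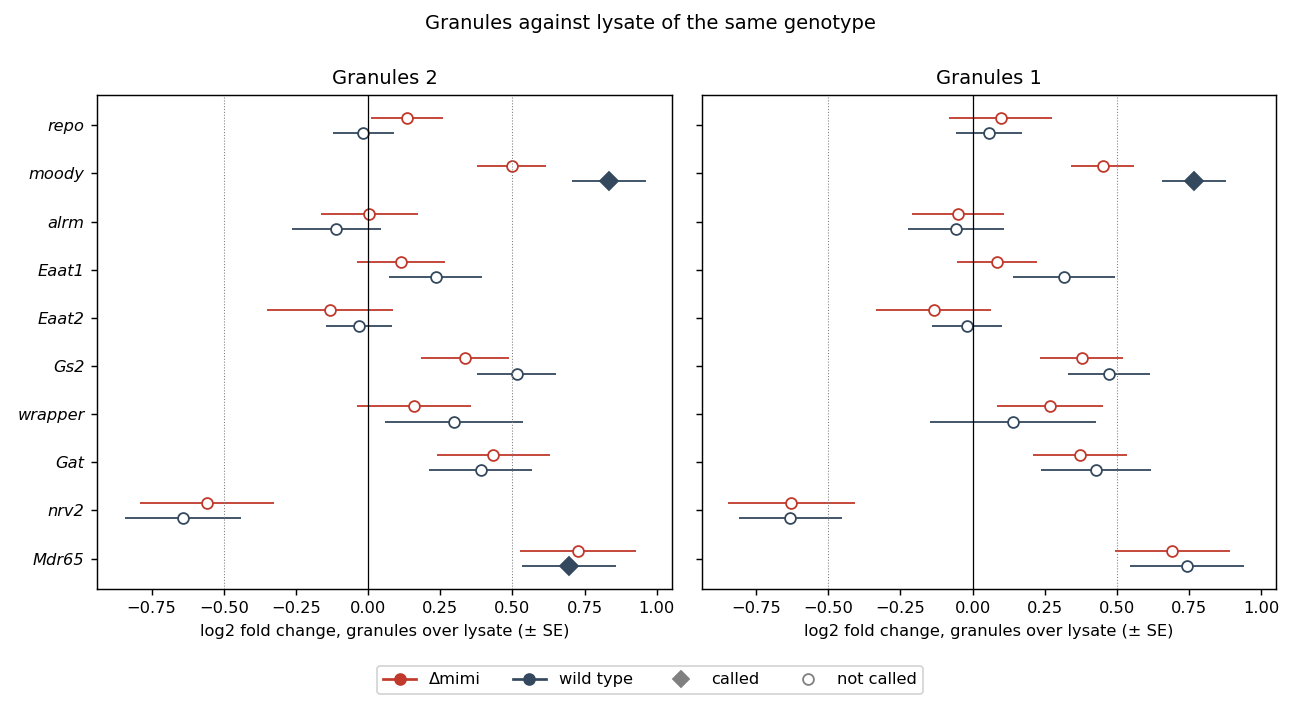
Log2 fold change of granules over lysate for each member in Δmimi (red) and wild type (blue), with bars of 1 SE on each side, for granules 2 (left) and granules 1 (right). Filled diamonds were called and dotted lines mark the threshold of 0.5 on the fold change. moody was called in both wild-type fractions and Mdr65 in wild-type granules 2, and nrv2 lies below 0 in all 4 comparisons.

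Whether granule enrichment depends on mimi was tested as the difference of the log2 fold changes between genotypes, Δmimi minus wild type, in the 12 libraries concerned. No member was called in granules 1, where 0.0102% of 9768 genes were called, or in granules 2, where 0% of 9717 genes were called. This fit leaves lysate and granules of a preparation unpaired. In it no member had an unadjusted p under 0.05, and DESeq2 called none either. The 6 alternatives that kept all preparations, the replicate block among them, also called 0 members in both fractions. moody had the lowest p of the 10, with a difference of -0.30 in granules 1 (SE 0.14, edgeR FDR = 0.9999) and -0.33 in granules 2 (SE 0.17, edgeR FDR = 0.9999). Over the edgeR and DESeq2 alternatives that kept all preparations, its lowest adjusted p was 0.341 in granules 1 and 0.254 in granules 2. Within preparations the log2 ratio of moody in granules 1 to lysate was 0.45, 0.33 and 0.59 in Δmimi, against 0.70, 0.67 and 0.97 in wild type, and the ratio for granules 2 was 0.50, 0.35 and 0.62 in Δmimi, against 0.88, 0.61 and 0.97 in wild type. In granules 1 the ratios of the genotypes did not overlap and in granules 2 they did. The share of all genes whose ratios did not overlap was not computed, so no conclusion is drawn from this. The other members differed by at most 0.21 in granules 1 and by at most 0.17 in granules 2, with standard errors up to 0.37.

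Among the related genes, nrv1 had a difference of -0.60 in granules 1 (SE 0.16, edgeR FDR = 0.9999) and -0.52 in granules 2 (SE 0.16, edgeR FDR = 0.9999). Its difference in granules 1 was called with the replicate block (edgeR FDR = 0.0460), against 0.358% of all genes, and by DESeq2 (adjusted p = 0.0492). In granules 2 it was not called with the block (edgeR FDR = 0.0756) or by DESeq2 (adjusted p = 0.254). With the block and the exon length correction together it was called there (edgeR FDR = 0.0145), against 0.679% of all genes. Without a block, nrv1 was called in none of the 6 leave-outs of either fraction (edgeR FDR = 0.999 or above). The granule fractions were also compared with each other, granules 2 over granules 1. No member was called for the wash in Δmimi or in wild type, where the background was 0% of 9736 and 0% of 9540 genes, none had an unadjusted p under 0.05 with edgeR, and DESeq2 called none. The largest absolute log2 fold change of a member was 0.12 in Δmimi and 0.15 in wild type.

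**Figure D3:**
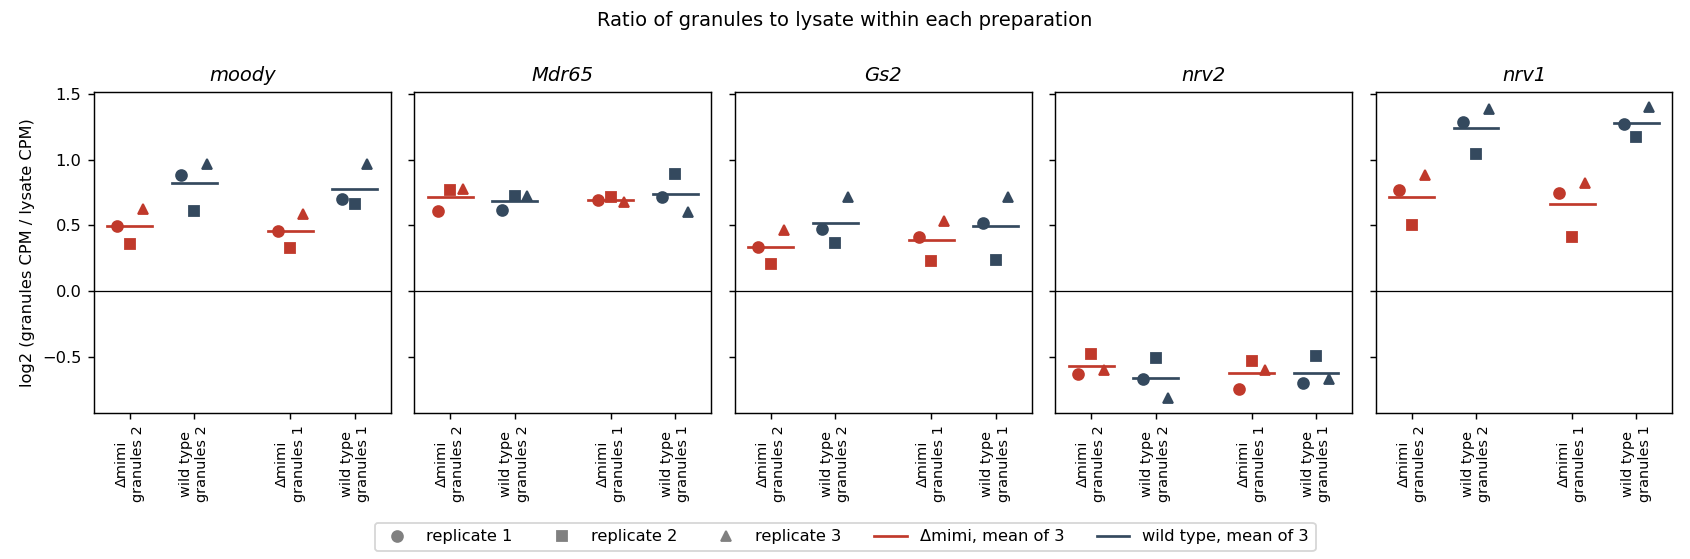
Log2 ratio of granules to lysate within each of the 3 preparations of Δmimi (red) and wild type (blue), for 4 members and for nrv1. Symbols mark the replicate number and lines are means of 3 preparations. The ratios of nrv2 lie below 0 and those of the other 4 genes above 0 in every preparation, and those of nrv1 in Δmimi lie below all of those in wild type. The share of all genes separated in this way was not computed.

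The study asked how heads without mimi differ in expression, and the genotypes were compared within each fraction. In lysates none of the 10 members passed the test, and the lowest values were those of repo, wrapper and Mdr65. Of the 10 members 0 were called, against 1.64% of 9771 genes, 1 had an unadjusted p under 0.05 with edgeR, and DESeq2 called none. The log2 fold change was below 0 for 9 of 10 members, with a median of -0.13, while 51.3% of all genes tested were below 0, with a median of -0.01. The signs of Eaat1, Eaat2, Gat, Gs2, moody and nrv2 turned in some leave-outs of a preparation. The Δmimi and wild-type libraries did not overlap for 1 of 10 members, against 19.1% of all genes tested. With the replicate block 1 of 10 was called, against 9.46% of all genes.

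repo was the only member whose Δmimi and wild-type lysate libraries did not overlap, 1 of 10 against 19.1% of all genes. It had 76.3, 61.9 and 62.9 CPM in Δmimi lysates, against 106, 85.0 and 95.7 CPM in wild-type lysates. Its log2 fold change was -0.51 (SE 0.14, edgeR FDR = 0.145), which did not pass the test. With the replicate block repo was called lower (edgeR FDR = 0.00142), as it was with all 18 libraries in one fit (edgeR FDR = 0.0342). The latter fit counts the fractions of a preparation as separate libraries. These were 2 of 6 alternatives that kept all preparations, and the others did not call repo, DESeq2 among them. With the block and the exon length correction together its log2 fold change was -0.4996 (edgeR FDR = 0.00157), short of the threshold of 0.5. The 3' end of repo overlaps the antisense gene CG7156 by 183 exonic bases, or 6.11% of its exons, and CG7156 had a log2 fold change of 0.27 (edgeR FDR = 0.490). In granules 1 repo stood at 90.5, 58.5 and 67.1 CPM in Δmimi, against 107, 100.0 and 93.9 CPM in wild type, and in granules 2 at 75.8, 69.3 and 75.1 CPM in Δmimi, against 90.1, 96.4 and 95.4 CPM in wild type. The genotypes did not overlap in either fraction. The log2 fold changes were -0.46 (SE 0.16, edgeR FDR = 0.149) and -0.35 (SE 0.09, edgeR FDR = 0.0791). In granules 1 it was called without preparation 1 of Δmimi (log2 fold change -0.66, edgeR FDR = 0.0367), the only leave-out in which repo was called.

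wrapper had 37.6, 23.9 and 31.4 CPM in Δmimi lysates, against 51.2, 31.9 and 39.3 CPM in wild-type lysates. The groups overlapped, yet in each pair of the same number the Δmimi library was lower. Its log2 fold change was -0.40 in lysate (SE 0.23, edgeR FDR = 0.518), -0.26 in granules 1 (SE 0.26, edgeR FDR = 0.634) and -0.52 in granules 2 (SE 0.21, edgeR FDR = 0.236). In granules 2 it had 37.3, 29.3 and 36.9 CPM in Δmimi, against 58.7, 35.0 and 56.2 CPM in wild type, and it was called lower there with the replicate block (edgeR FDR = 0.00303, 1 of 10 members against 11.2% of all genes) and without preparation 2 of wild type (edgeR FDR = 0.0481). Mdr65 had a log2 fold change of -0.33 in lysate (SE 0.17, edgeR FDR = 0.471), where its Δmimi library was lower in each of the 3 pairs. The log2 fold change of alrm in lysate was -0.25 (SE 0.14, edgeR FDR = 0.519). nrv2, Eaat2, Gat, Gs2, moody and Eaat1 lay between -0.16 and 0.01 in lysate, with standard errors of 0.11 to 0.20.

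In the granule fractions all 10 members were below 0 between genotypes, with medians of -0.22 in granules 1 and -0.20 in granules 2, against -0.0037 and 0.0080 over all genes tested. Of all genes tested 50.6% were below 0 in granules 1 and 48.4% in granules 2. In some leave-outs the signs of Gat and nrv2 turned in granules 1, and those of Eaat1, Gat, alrm and nrv2 in granules 2. No member was called in either fraction, against 5.75% of 9754 genes in granules 1 and 5.24% of 9617 genes in granules 2. With edgeR 2 members had an unadjusted p under 0.05 in granules 1 and 3 in granules 2, and DESeq2 called none in either. The genotypes did not overlap for 2 members in granules 1, repo and moody, against 26.3% of all genes, and for 2 in granules 2, repo and Gs2, against 24.2%. The 3 fractions of a preparation come from the same heads, so these comparisons are not independent of the one in lysates. moody, which was level in lysate at a log2 fold change of -0.03, had -0.33 in granules 1 (SE 0.11, edgeR FDR = 0.132) and -0.35 in granules 2 (SE 0.13, edgeR FDR = 0.210).

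**Figure D4:**
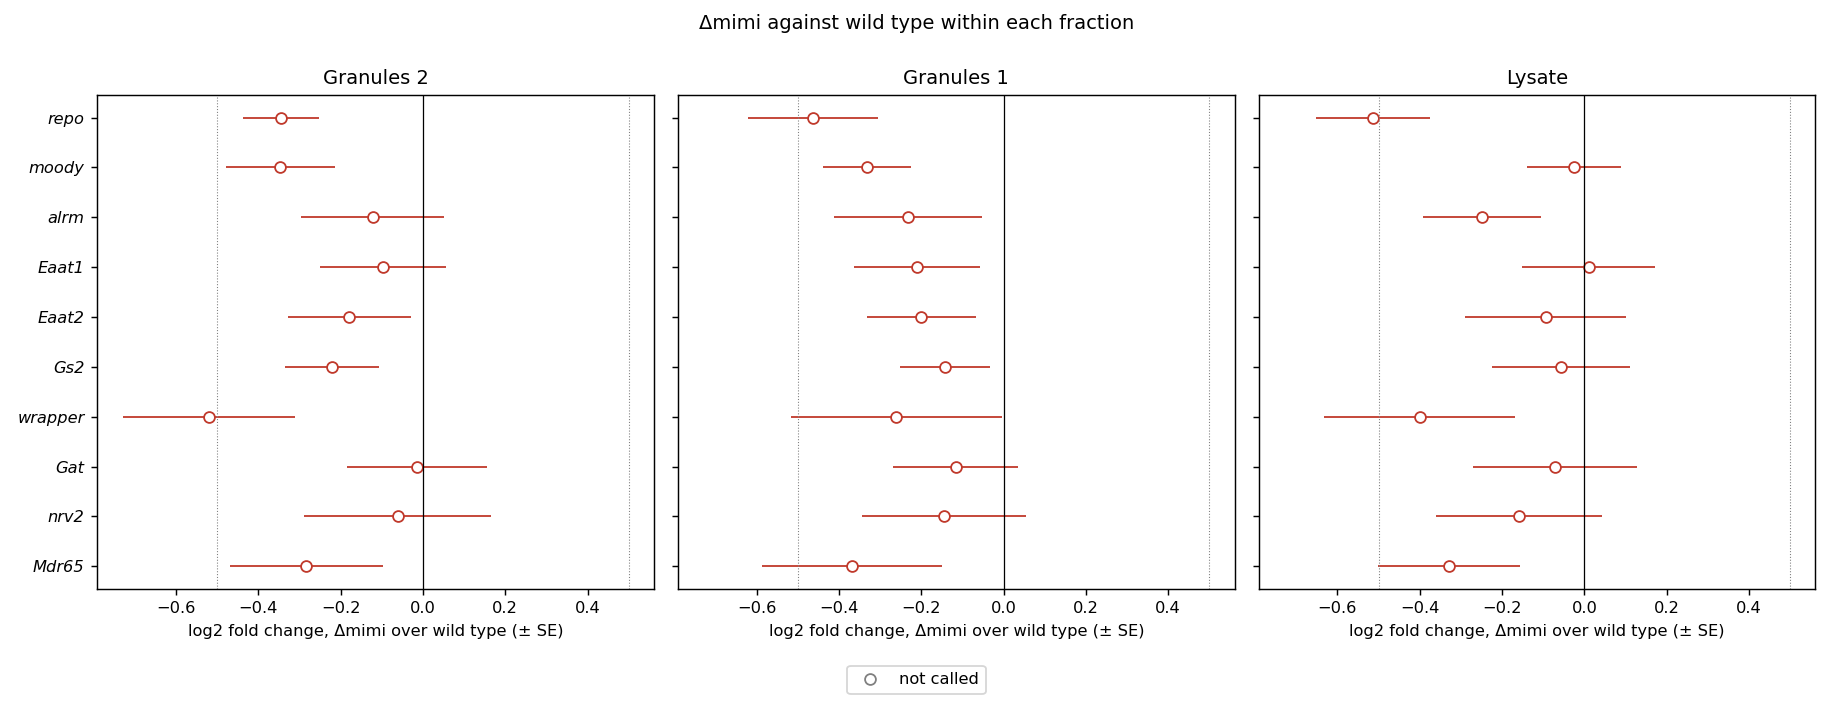
Log2 fold change of Δmimi over wild type for each member in granules 2 (left), granules 1 (middle) and lysate (right), with bars of 1 SE on each side. Open circles show that no member was called, and dotted lines mark the threshold of 0.5 on the fold change. All members lie below 0 in both granule fractions and 9 of 10 in lysate, where repo is lowest.

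Further genes were read as lists named after glial classes and tasks. Which cells of the head gave their reads cannot be told from these bulk samples. Of 15 genes of surface glia and septate junctions, 3 rose and 0 fell in Δmimi granules 1, with a median log2 fold change of 0.31, and 5 rose and 0 fell in wild-type granules 1, with a median of 0.36. The share of all genes called higher was 2.65% in Δmimi granules 1 and 4.82% in wild-type granules 1. Gliotactin (Gli), which marks the corners where septate junctions meet, was higher by 0.60 in Δmimi granules 1 (edgeR FDR = 0.0285) and by 0.85 in wild-type granules 1 (edgeR FDR = 0.00202). Nrx-IV, a transmembrane protein of the junction, was higher by 0.54 in Δmimi (edgeR FDR = 0.0281) and by 0.76 in wild type (edgeR FDR = 0.00458). cora, which links the junction to the cell cortex, was higher by 0.51 in Δmimi (edgeR FDR = 0.0345) and by 0.54 in wild type (edgeR FDR = 0.0245). In granules 2 these 3 were called in both genotypes, with counts of 3 in Δmimi, against 2.43% of all genes called higher, and 5 in wild type, against 5.43%. For the difference between genotypes 0 of 15 were called in either fraction by edgeR or DESeq2, 0 had an unadjusted p under 0.05, and the list had medians of -0.06 in granules 1 and -0.10 in granules 2, against 0.01 over all genes tested in both. When the block was joined by a correction for exon length, the log2 fold change was below 0.5 in Δmimi granules 1 for Gli (0.49), Nrx-IV (0.40) and cora (0.36) and in wild-type granules 1 for cora (0.40), which ended these calls, and likewise for all 3 in Δmimi granules 2 and for cora in wild-type granules 2. The Δmimi calls of these 3 genes were lost without any 1 of the 3 preparations, and the wild-type calls without preparation 3 and, for all but Gli in granules 2, without preparation 1.

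Of 10 genes of cortex glia, wrapping and engulfment, 1 rose in Δmimi granules 1 and 4 rose in wild-type granules 1, with medians of 0.17 and 0.34, and none fell. For this list and the next, the share of all genes called higher was 2.65% in Δmimi granules 1 and 4.82% in wild-type granules 1. Inx2, a gap junction protein, was higher in granules 1 by 0.62 in Δmimi (edgeR FDR = 0.0370) and by 0.67 in wild type (edgeR FDR = 0.0171). drpr, the engulfment receptor, was higher by 0.68 in wild-type granules 1 (edgeR FDR = 0.00632), and ced-6, its adaptor, by 0.56 (edgeR FDR = 0.0210). Of 9 genes of astrocyte-like and ensheathing glia, 0 rose and 1 fell in Δmimi granules 1, and 2 rose and 1 fell in wild-type granules 1, where the share of all genes called lower was 2% in Δmimi and 3.36% in wild type. GLaz, a glial lipocalin, was higher in wild-type granules 1 by 0.83 (edgeR FDR = 0.00938) and axo, a protein released by glia, by 0.56 (edgeR FDR = 0.0243). In Δmimi granules 1 the log2 fold changes were 0.29 for GLaz (edgeR FDR = 0.126) and 0.72 for axo (edgeR FDR = 0.0534). DESeq2 called axo higher there, and Obp44a and CG1552 lower. CG1552 fell in granules 1 in Δmimi (log2 fold change -0.82, edgeR FDR = 0.0408) and in wild type (log2 fold change -0.78, edgeR FDR = 0.0187). The Δmimi calls of Inx2 and CG1552 were lost without any 1 preparation, and the wild-type calls of Inx2, drpr, ced-6, GLaz, axo and CG1552 without preparation 1 or preparation 3. The block with the exon length correction ended the granules 1 calls of Inx2 in Δmimi (log2 fold change 0.49) and of axo in wild type (0.37). Of 5 genes of glial fate, 2 were high enough to be tested, and 0 were called by edgeR or DESeq2 in any comparison. Their unadjusted p was under 0.05 for 1 gene in the lysates between genotypes and for 1 in wild-type granules 2.

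Between genotypes the further glial lists did not share one direction in lysate. Of 15 genes of surface glia and septate junctions 10 were above 0, with a median log2 fold change of 0.055, of 10 genes of cortex glia, wrapping and engulfment 6 were above 0, with a median of 0.027, and both tested genes of glial fate were above 0, with a median of 0.29. Of 9 genes of astrocyte-like and ensheathing glia 6 were below 0, with a median of -0.23. In granules 1 the medians were -0.024 for surface glia, -0.15 for cortex glia, -0.19 for astrocyte-like glia and 0.21 for glial fate, and in granules 2 they were -0.036, -0.21, -0.26 and 0.11 in that order. Of these lists only that of astrocyte-like and ensheathing glia held a gene called by edgeR, CG1552, which fell in lysate and in granules 2, where 0.778% and 2.58% of all genes fell. In each fraction 1 or 2 genes of the surface list and of the cortex list had an unadjusted p under 0.05 with edgeR, and DESeq2 called none of them. Of the astrocyte-like and ensheathing list DESeq2 called CG1552 lower in lysate. In granules 1 it called 1 higher and 2 lower (NLaz, Obp44a and CG1552 together), and in granules 2 it called NLaz higher and CG1552 lower. CG1552 had 61.3, 55.7 and 51.2 CPM in Δmimi lysates, against 91.6, 104 and 81.5 CPM in wild-type lysates, without overlap. Its log2 fold change was -0.72 in lysate (SE 0.13, edgeR FDR = 0.0491), -0.75 in granules 1 (SE 0.18, edgeR FDR = 0.0552) and -0.70 in granules 2 (SE 0.14, edgeR FDR = 0.0250). The call of CG1552 was lost in 5 of 6 leave-outs in lysate and in 4 of 6 in granules 2.

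Of the further genes of the glutamate and GABA cycle, which include VGlut of neurons, edgeR called 2 lower in Δmimi in each granule fraction. Of 8 genes of the glutamate and GABA cycle outside the members, all were below 0 in lysate, with a median of -0.42 against -0.01 over all genes tested, although 0 were called by edgeR, where 3 had an unadjusted p under 0.05. DESeq2 called 2 of them, Gabat and Ssadh. In granules 1 and in granules 2, 2 of 8 fell and 0 rose with edgeR, where 3.03% and 2.58% of all genes fell. The medians were -0.43 and -0.41, with 1 and 2 of 8 above 0. DESeq2 called 3 lower in granules 1 (Gabat, VGlut and VGAT) and 3 in granules 2 (Gabat, VGlut and Ssadh). Gabat, the GABA transaminase that breaks GABA down, had 194, 193 and 177 CPM in Δmimi granules 1, against 327, 316 and 270 CPM in wild-type granules 1, without overlap. Gabat fell in granules 1 (log2 fold change -0.68, SE 0.11, edgeR FDR = 0.0121) and in granules 2 (log2 fold change -0.62, SE 0.10, edgeR FDR = 0.0119). Ssadh, the next enzyme of that path, fell in granules 2 (log2 fold change -0.60, SE 0.09, edgeR FDR = 0.00969), and VGlut, the vesicular transporter of glutamatergic neurons, fell in granules 1 (log2 fold change -0.61, SE 0.14, edgeR FDR = 0.0404). The call of VGlut was lost in 5 of 6 leave-outs, those of Gabat without preparation 3 of Δmimi or 1 of wild type in granules 1 and without preparation 2 of Δmimi or 1 of wild type in granules 2, and that of Ssadh in none. With the replicate block 2 of the 8 fell in lysate as well, against 4.02% of all genes, and 4 in each granule fraction, against 4.96% in granules 1 and 4.81% in granules 2.

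Markers of neurons were also mostly below 0 in lysate, and their part in the low glial values was not tested. Their summed level was 3187 to 4790 CPM in Δmimi lysates, against 3762 to 5148 CPM in wild-type lysates, and 10 of 11 were below 0 with a median of -0.22, against -0.13 over the 10 members. In granules 1 and granules 2 the neuron markers had medians of -0.040 and -0.056, against -0.22 and -0.20 over the members. Of 10 muscle markers all were above 0 in lysate, with a median of 0.28. For neuron and for muscle markers, 0 were called in lysate by edgeR or DESeq2 and 0 had an unadjusted p under 0.05. Of 5 tested hemocyte markers all were below 0 in lysate, with a median of -1.56, and 2 fell, against 0.778% of all genes. Of 8 fat body markers 7 were above 0 in lysate, with a median of 0.32, and 1 rose, against 0.86% of all genes. The summed level of the 10 glial members was 2738 to 3605 CPM in Δmimi lysates, against 3093 to 3778 CPM in wild-type lysates, and overlapped.

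The preparations differed among themselves in a way that split the glial markers. After the mean of each group was removed, alrm, Mdr65, Gat, Eaat1 and nrv2 varied together over the 18 libraries, with Pearson correlations of 0.69 to 0.93 between any pair of them. wrapper ran against them, with correlations of -0.83 with Mdr65 and -0.73 with Eaat1, and was most like moody, at 0.73. repo was most like Eaat2 among the members, at 0.70. The libraries share 6 preparations, and equal replicate numbers went together between genotypes, at correlations of 0.40 to 0.81. These values therefore describe few preparations and not separate samples. Whether other sets of genes split in the same way was not tested. alrm, Eaat1, Gat and Mdr65 were highest in the library with replicate number 2 in 6 of 6 groups and nrv2 in 5 of 6, and wrapper was lowest there in 6 of 6. The summed muscle markers were also highest in number 2 in 6 of 6 groups and the photoreceptor markers lowest in 6 of 6, with 41087 and 16463 CPM of muscle transcripts in numbers 2 and 1 of Δmimi granules 1. The part of these tissues in the split was not tested.

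**Figure D5:**
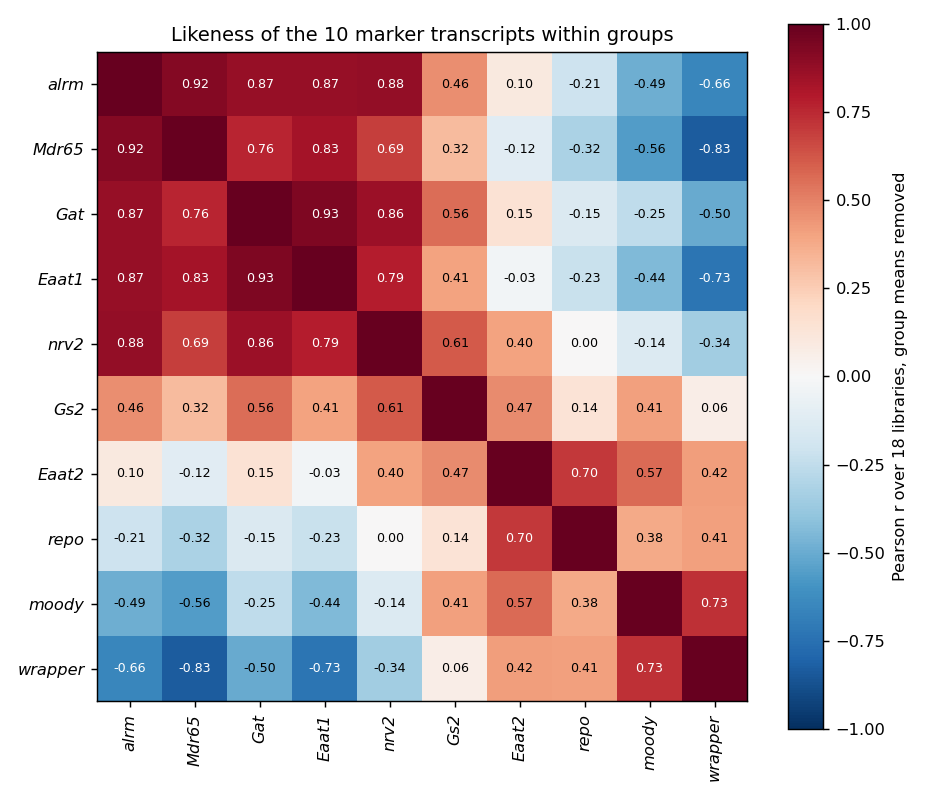
Pearson correlation of log2(CPM + 0.5) between members over 18 libraries after the mean of each of the 6 groups was removed, on a colour scale that runs between -1 and 1. alrm, Mdr65, Gat, Eaat1 and nrv2 form a block of high values, and wrapper has negative values with all of these.

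Outside the list, genes most like the members in this measure were sought among 7744 genes with a mean of at least 50 counts. nrv2 was most like CG6329 (0.98), alrm most like RIC-3 (0.97) and wrapper most like ZAP3 (0.97). The closest genes were Cbp53E for Gat (0.95), PMCA for Eaat1 (0.95), CG32225 for Eaat2 (0.95), Oda for moody (0.94), Ald1 for Gs2 (0.93) and Orp8 for repo (0.92). The median correlation over all genes lay between -0.06 and 0.03, and the best of many genes is high by the choice itself.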

How the data were processed

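Total RNA from fly heads was depleted of ribosomal RNA and sequenced from stranded libraries. Using snakePipes, the authors aligned reads to dm6 with STAR and obtained gene counts with featureCounts. Tool versions, and whether the counting used strand, are not given in the sources used here. The deposited values are raw counts, and replicates were not pooled. A second deposited file holds the authors' own fold changes and p-values between granules and lysate and was not used. Symbols and exons came from a later Ensembl annotation (17252 genes matched), 0 columns were left unused, and no sequence table was used.

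Only the groups compared entered a fit, made with edgeR version 4.0.16 under R version 4.3.3 (TMM, no covariate, base mean above 10). SE, the size of the log2 fold change over the square root of F, is tied to p. Per-library levels are CPM with TMM over 18 libraries. The code was tested on simulated data. Libraries of a group were not copies of each other, with a chi-square per degree of freedom of at least 5.77.

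Labels give the same replicate numbers in all groups, and granules come from the lysate of their number. Deviations from group means correlated at 0.40 to 0.81 between genotypes and at 0.53 to 0.83 within a genotype for equal numbers, so the numbers were taken as pairs. Alternatives were DESeq2 size factors, the DESeq2 test (version 1.42.0), no filter, the block with and without an exon length correction, all libraries together, and leaving out each preparation. Members and lists were chosen with earlier results of these data known. All members were named in every comparison, of each other list at most 3 called genes with the lowest p, and nrv1, nrv3, Atpalpha and CG7156 also after their values were seen. Of 100 list symbols 5 were not matched. A result on the likeness of other genes to a member is not reported here.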

Additional observations from a re-analysis of the deposited data

How the results depend on the processing

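Calls on the members depended on how the spread was modelled, while their direction seldom did as long as all preparations were kept. Under the alternatives that kept all preparations, 500 of 540 member values kept their sign and their side of the threshold, 33 gained a call and 7 changed sign. When 1 preparation was left out, 368 of 420 member values kept both, 40 changed sign, 6 gained a call and 6 lost one. With the replicate block, 2 members were called in Δmimi granules 1, 3 in wild-type granules 1, 2 in Δmimi granules 2, 4 in wild-type granules 2, 1 in granules 2 between genotypes and 1 in lysate between genotypes, and with the exon length correction as well the counts were 2, 3, 2, 4, 1 and 0. The block changed no other call of a member. DESeq2 called 1 member in Δmimi granules 1, 3 in wild-type granules 1, 2 in Δmimi granules 2 and 4 in wild-type granules 2. One fit over all 18 libraries called 1 each in Δmimi granules 1 and 2, 2 in wild-type granules 1 and 1 in lysate between genotypes, and the fit without the filter called 2 in wild-type granules 1. In wild-type granules 2 the 6 alternatives that kept all preparations called 2 to 4 members, and 5 of the 6 called Gs2. Leaving out 1 preparation gave 0 to 4 calls in wild-type granules 1, 0 to 3 in wild-type granules 2, and 0 to 1 between genotypes in granules 1 and in granules 2. For genes of the other lists, 328 of 346 values under the alternatives that kept all preparations kept their sign and their side of the threshold, 14 lost a call and 4 gained one. The cause was not tested, and fits with fewer preparations have less power by construction.

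The sign changes were near 0. With the block and length correction, alrm was 0.028 in Δmimi and 0.011 in wild-type granules 1, and the nrv2 enrichment difference in granules 1 was -0.0073. With the block, alrm in Δmimi granules 2 was -0.0036. With all 18 libraries it was -0.0025, and the differences in granules 1 were -0.0036 for alrm and -0.0057 for nrv2. Leaving out 1 preparation turned signs in these results. Between genotypes the values ran over -0.099 to 0.11 for Eaat1, -0.32 to 0.041 for Eaat2, -0.21 to 0.089 for Gat, -0.15 to 0.056 for Gs2, -0.096 to 0.048 for moody and -0.27 to 0.014 for nrv2 in lysate, over -0.23 to 0.040 for Gat and -0.30 to 0.031 for nrv2 in granules 1, and over -0.21 to 0.033 for Eaat1, -0.17 to 0.095 for Gat, -0.28 to 0.027 for alrm and -0.24 to 0.11 for nrv2 in granules 2. Enrichment in Δmimi ran over -0.13 to 0.011 for alrm in granules 1 and over -0.062 to 0.022 for alrm in granules 2. Enrichment in wild type ran over -0.050 to 0.0022 for Eaat2 and -0.013 to 0.10 for repo in granules 1 and over -0.074 to 0.027 for Eaat2 and -0.11 to 0.084 for repo in granules 2. The enrichment differences ran over -0.17 to 0.11 for Gat, -0.21 to 0.029 for Gs2, -0.093 to 0.058 for Mdr65, -0.052 to 0.089 for alrm, -0.047 to 0.096 for nrv2 and -0.030 to 0.13 for repo in granules 1 and over -0.0045 to 0.15 for Gat and -0.18 to 0.011 for wrapper in granules 2. Each member had at least 136 counts in every library, and no test was lost to low counts.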
